A study of Homo sapiens with 13 samples.

Results

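The 8 genes described here store, import, release, export or sense iron, out of 24875 gene symbols in the Silvestrol table and 13121 in the INK128 table, and were followed through 13 libraries of MDA-MB-231 cells, a human triple-negative breast cancer line. The members were chosen by name and function, with earlier results of these data known. They are the ferritin chains FTH1 and FTL, the transferrin receptor TFRC, the iron regulatory proteins IREB2 and ACO1, the ferritin cargo receptor NCOA4, the exporter SLC40A1 (ferroportin) and the importer SLC11A2 (DMT1). All 8 are in the Silvestrol table and 6 passed its filter on low values, the exceptions being FTH1 and SLC40A1. Of the 8, 7 are in the table for INK128, NCOA4 being not listed, and 6 passed the filter, the exception being SLC40A1. Ribosome footprints (RFs), the mRNA fragments protected by translating ribosomes, were sequenced from cells left untreated and after 1 h or 2 h with DMSO or with Silvestrol at 25 nM (an inhibitor of the RNA helicase eIF4A). All these cells were at passage 3, and the 2 h treatments were repeated in a culture at passage 4, so that only the 2 h RF comparison has replicates (n = 2 per treatment). Polyadenylated mRNA was sequenced at 2 h from passage 3, with 1 library per treatment. A separate experiment compared RFs and total RNA of cells at passage 3 given DMSO or 200 nM INK128 (an mTOR kinase inhibitor) for 2 h, with 1 library per condition. The labels name no genetic change, and every library came from the same established line.

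Ferritin is a hollow shell of heavy (FTH1) and light (FTL) chains in which cells store iron. NCOA4 takes ferritin to lysosomes, where the iron is released, TFRC brings in transferrin-bound iron, SLC11A2 moves iron across the endosomal membrane and SLC40A1 carries it out of the cell. When iron is scarce, the iron regulatory proteins IRP1 (ACO1, which otherwise acts as a cytosolic aconitase) and IRP2 (IREB2) bind a short hairpin, the iron-responsive element. Bound in the 5′ UTR, as in ferritin and ferroportin mRNAs, they block initiation of translation, and bound in the 3′ UTR, as in TFRC mRNA, they slow decay of the mRNA. The iron regulatory proteins and ferritin are thus a textbook case of translational control.

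The element was located in the members' transcripts, since it is the sequence that the iron regulatory proteins bind. It was searched on the sense strand as the loop CAGTGN closed by 5 paired bases (G-U pairs allowed), with a C 6 bases before the loop. Pairing below that C was not required. One transcript per gene was used (GENCODE on GRCh37). The loop is in capitals in the 30-base windows below, each lying in a UTR exon of the named gene, and the first 3 lie in 5′ UTRs while the others lie in the 3′ UTR of TFRC.
FTH1, chr11:61735046-61735075, minus strand: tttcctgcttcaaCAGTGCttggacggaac
FTL, chr19:49468591-49468620, plus strand: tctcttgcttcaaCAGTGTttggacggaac
SLC40A1, chr2:190445387-190445416, minus strand: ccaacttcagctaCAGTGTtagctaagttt
TFRC, chr3:195777850-195777879, minus strand: taattatcggaagCAGTGCcttccataatt
TFRC, chr3:195777446-195777475, minus strand: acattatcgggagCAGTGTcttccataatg
TFRC, chr3:195777381-195777410, minus strand: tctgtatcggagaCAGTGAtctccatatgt
TFRC, chr3:195777334-195777363, minus strand: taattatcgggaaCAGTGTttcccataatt

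A match was found in 18 of 19168 5′ UTRs (0.0939%) and in 122 of 19264 3′ UTRs (0.633%). In the 5′ UTRs of FTH1, FTL and SLC40A1 the loop begins at positions −165, −161 and −217 counted from the start codon, close to the 5′ end for both ferritins (bases 45 and 39 of the transcript). TFRC, with 4, was the only gene whose 3′ UTR held 3 or more matches. IREB2, ACO1, NCOA4 and the transcript used for SLC11A2 held none, which says only that these letters are not in those transcripts. The median 5′ UTR of 9007 genes of the filtered table was 136 nucleotides long with a folding energy of −52.9 kcal/mol. FTH1 had 209 nucleotides and −57.7 kcal/mol, and FTL had 199 and −60.5. TFRC had 71 nucleotides at −23.2 kcal/mol, with 25.3% of these genes shorter. SLC40A1 had 326 nucleotides at −122.1 kcal/mol, longer than in 83.8% of these genes and lower in energy than in 79.5%.

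Counted reads ranged from 2652423 (passage 4, Silvestrol at 2 h) to 50315607 (the DMSO mRNA library), so passage 4 gives the least precise values. The cells showed the markers of the line. VIM, CD44 and EGFR had RFs of 18.4 RPKM or more in every library, whereas ESR1, PGR and CDH1 did not exceed 0.108 RPKM, and PTPRC, HBB and ALB, markers of other cells, did not exceed 0.0307 RPKM (PECAM1 has no RF value). In bulk cultures such as these, fewer cells with a transcript and less of it per cell cannot be told apart. For 2 libraries the label fields conflict, namely the time of the Silvestrol RF library of passage 3 (1 h in one field, 2 h in the title) and the treatment of the control mRNA library (untreated in one field, DMSO in the title). The titles were followed, but the deposited column of control mRNA names no treatment, and each change in mRNA or in translational efficiency (TE, RF over mRNA) with Silvestrol rests on it.

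Ferritin was nearly invisible in the RF counts of the Silvestrol experiment. The authors counted uniquely mapped reads only and left out positions with non-unique reads. Of the 30-base windows in the coding sequence of FTH1, 523 of 523 (100%) had a match with at most 2 mismatches elsewhere in the genome, as had 496 of 499 (99.4%) for FTL and 1531 of 1816 (84.3%) for NCOA4. The share was 2.97% for IREB2, 0.532% for TFRC and 0 for ACO1, SLC40A1 and SLC11A2. FTH1 collected 3 RF reads over 7 libraries and FTL 110, against 29743 for TFRC and 76824 for ACO1. The length over which each gene was counted, obtained from reads over RPKM and scaled to the median gene, was 39.3 to 63.9 of 552 coding bases for FTH1. It was 44.3 to 55.8 of 528 bases for FTL in passage 3, and 141 and 168 bases in passage 4. For NCOA4 it ran from 629 to 1358 of 1845 bases. For both genes the counted lengths were longest in the passage 4 libraries, the shallowest, as the plot of counted length shows, but within passage 3 they did not follow depth throughout. RPKM values of FTL and NCOA4 are therefore not from the same bases in every library, and their read counts are given as well.

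**Figure D1:**
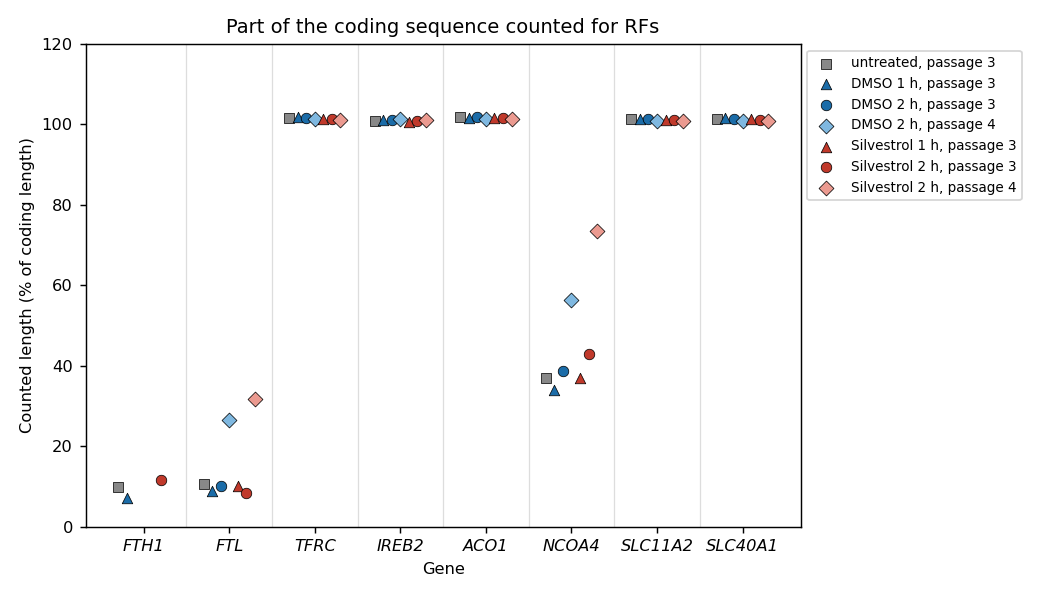
The y axis gives the length counted for RFs as a percent of the coding length of each gene, and each point is 1 of 7 RF libraries. TFRC, IREB2, ACO1, SLC11A2 and SLC40A1 lie near 100% in every library, while FTH1 lies at 7.12 to 11.6%, FTL at 8.39 to 31.9% and NCOA4 at 34.1 to 73.6%, and FTH1 has no point where it had no read.

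Without Silvestrol, ACO1 had the highest RF level per length among the members and SLC40A1 the lowest that was measured. ACO1 had 185 RPKM in untreated cells, 175 in DMSO at 1 h, and 175 and 173 in DMSO at 2 h in passages 3 and 4. NCOA4 followed with 94.8, 93.5, 85.1 and 73.9 RPKM in the same order. TFRC had 76.1, 69.8, 63.9 and 124 RPKM. The ranges of NCOA4 and TFRC overlapped, so their order is not settled. IREB2 was lower, with 27.8, 24.2, 25.7 and 29.5 RPKM. FTL had 8.71, 12.5, 9.82 and 4.35 RPKM from 16, 24, 18 and 5 reads, and SLC11A2 had 6.28, 6.58, 6.58 and 12.9 RPKM. These last ranges overlapped as well, whereas SLC40A1 stayed between 0.118 and 0.566 RPKM, from 7 to 28 reads.

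In DMSO few RFs were counted for the mRNA of FTL, FTH1 and SLC40A1, the members with the element in the 5′ UTR. Nearly all coding windows of the ferritins matched elsewhere, so their RFs could hardly be counted in the Silvestrol experiment. In passage 3 at 2 h, TE was 3.97 for IREB2, 2.86 for ACO1, 2.67 for NCOA4, 1.04 for TFRC and 0.762 for SLC11A2, and the median of all 10526 genes was 1.84. FTL had a TE of 0.0851, and only 0.570% of genes were lower. SLC40A1, below the filter, had a TE of 0.0535, from 7 RF reads and 467 mRNA reads. For FTH1, whose coding windows all had a match elsewhere, no RF read was counted in that library. Its mRNA had 478 reads over 387 counted bases. In the INK128 experiment, whose TE values are on another scale (median 14.7 in DMSO), FTL had a TE of 3.12 and FTH1 of 4.13, with 7.32% and 9.24% of genes lower, and SLC40A1 had 5.17. ACO1, TFRC, SLC11A2 and IREB2 had 19.0, 17.5, 16.4 and 11.7 there. The ferritin values rest on the few bases described above in the first experiment, and how reads shared with other loci were counted for the FPKM values is not given in the sources used here.

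**Figure D2:**
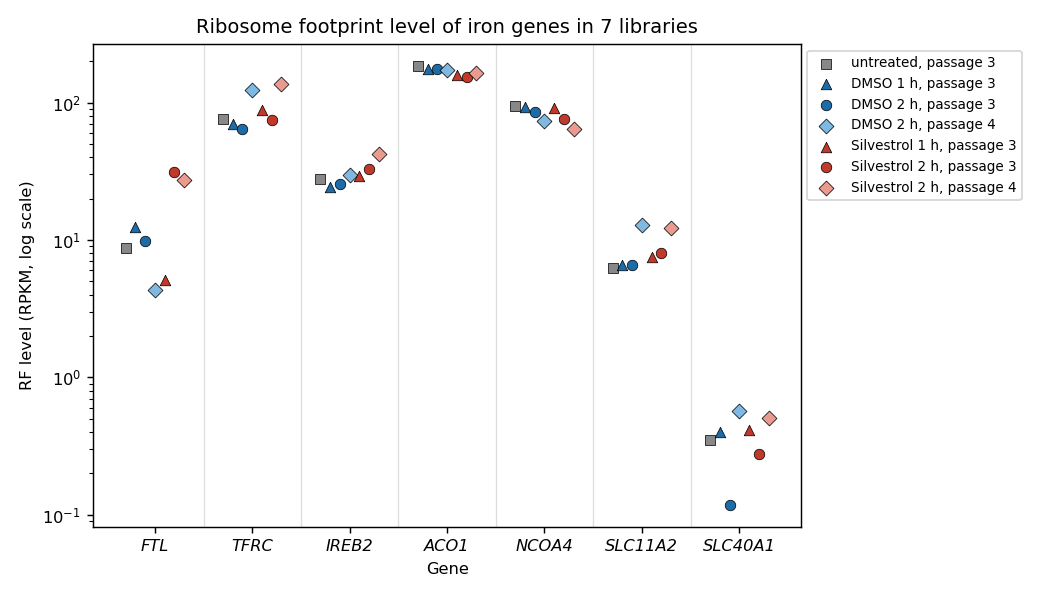
RF levels in RPKM (log scale) of 7 members in the 7 RF libraries of the Silvestrol experiment, 1 point per library. FTL lies at 31.0 and 27.5 RPKM in the 2 h Silvestrol libraries and at 4.35 to 12.5 RPKM in the other 5, and TFRC and SLC11A2 lie highest in both passage 4 libraries. FTH1 is not drawn because its level was 0 in 4 of 7 libraries.

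Among the storage genes, FTL RFs were higher with Silvestrol at 2 h in both passages, but the change did not pass the test. In passage 3 FTL had 9.82 RPKM with DMSO (18 reads) and 31.0 with Silvestrol (23 reads). In passage 4 the values were 4.35 RPKM (5 reads) and 27.5 RPKM (16 reads). The groups did not overlap, and the ratios were 3.16 and 6.32. In the edgeR quasi-likelihood test the log2 change was 2.34 ± 0.73 (SE, n = 2 per group) with an adjusted p of 0.103, and of all genes tested 7.58% were called lower and 2.16% higher. With passage as a block it was 2.04 ± 0.52 with an adjusted p of 0.000336, in a fit that called 25.0% of all genes higher. Correction for the counted length gave 2.11 ± 0.52 with an adjusted p of 0.0596. At 1 h the direction was the opposite, with 12.5 RPKM in DMSO (24 reads) and 5.12 in Silvestrol (8 reads). On reads scaled to the library total (RPM) the log2 change at 1 h was −0.99 with a 95% interval of counting error from −2.35 to 0.21, an interval that includes 0. FTL mRNA was lower at 2 h, with 115 and 85.8 RPKM from 541 and 212 reads, a log2 change on RPM of −0.33 (interval −0.57 to −0.10).

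FTH1 gave no footprint comparison. Its RF counts were 1 read each in the untreated, DMSO 1 h and passage 3 Silvestrol 2 h libraries and 0 in the others, so no change in FTH1 translation could be measured from uniquely mapped reads. Its mRNA was 20.0 RPKM with DMSO and 24.6 with Silvestrol, a log2 change on RPM of 0.36 (interval 0.15 to 0.57). The ferritin chains thus had mRNA changes of opposite sign, neither with a replicate.

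With DMSO NCOA4 had 85.1 RPKM in passage 3 and 73.9 in passage 4, and with Silvestrol 75.5 and 63.9. RPM values gave the other direction, being 79.2 and 97.4 with DMSO and 83.5 and 113 with Silvestrol. The counted length was longer in the Silvestrol library of each pair (793 against 713 bases, and 1358 against 1042). In edgeR the log2 change was 0.21 ± 0.21 (SE, adjusted p = 0.539), and −0.04 ± 0.18 with the counted length taken into account (adjusted p = 0.899). The other storage genes, from a list chosen by function, were the iron chaperones PCBP1 and PCBP2 and the ferritin paralogs FTMT and FTHL17. PCBP1 and PCBP2 had log2 changes of 0.39 ± 0.13 (adjusted p = 0.124) and 0.17 ± 0.16 (adjusted p = 0.504) by edgeR, and the paralogs did not pass the filter. None of the 4 storage genes tested was called without the block, and with it FTL and PCBP1 were called higher (PCBP1 0.39 ± 0.09, edgeR adjusted p = 2.54e-05).

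**Figure D3:**
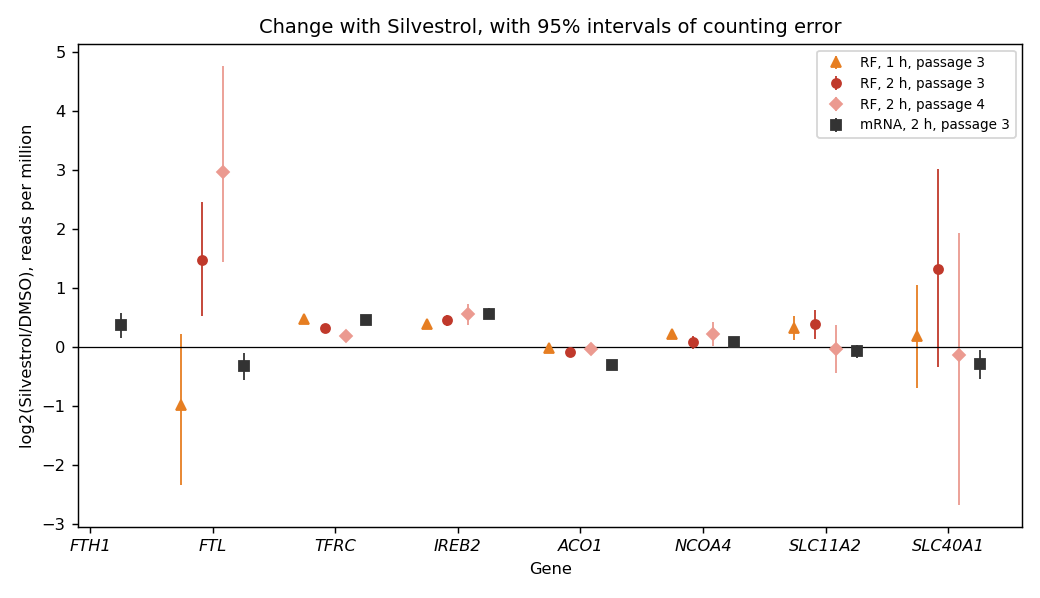
The y axis gives the log2 ratio of Silvestrol to DMSO in RPM for RFs at 1 h, RFs at 2 h in each passage and mRNA at 2 h, with bars for the 95% interval of counting error, which leaves out variation between cultures. FTL lies at 1.48 and 2.96 in the passages at 2 h and at −0.99 at 1 h, with wide bars, while the RF points of TFRC, IREB2, ACO1 and NCOA4 lie between −0.09 and 0.55 with narrower bars.

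For iron uptake, RF levels of both importers differed between the passages, and neither was called with Silvestrol by the test without passage as a block. With DMSO TFRC had 63.9 RPKM in passage 3 and 124 in passage 4, and with Silvestrol 74.3 and 137. Both Silvestrol libraries were higher than the DMSO library of their own passage, but the groups overlapped. The log2 RF change was 0.29 ± 0.38 (SE, n = 2 per group, edgeR adjusted p = 0.648), and 0.31 ± 0.09 with passage as a block (adjusted p = 0.00298). TFRC mRNA was also higher with Silvestrol, at 80.0 against 61.2 RPKM, a log2 change on RPM of 0.45 (interval 0.42 to 0.48). At 1 h TFRC RFs were 69.8 RPKM with DMSO, 89.0 with Silvestrol and 76.1 in untreated cells, so the log2 change in RPKM was 0.35 against DMSO and 0.23 against untreated cells.

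The other importer, SLC11A2, had 6.58 (passage 3) and 12.9 RPKM (passage 4) with DMSO against 8.02 and 12.3 with Silvestrol, and the groups overlapped. Its log2 RF change was 0.18 ± 0.38 (edgeR adjusted p = 0.784), and its mRNA was 8.64 and 7.83 RPKM. Between passages, a comparison added after the values had been seen, edgeR with treatment in the model gave a log2 difference of 0.83 ± 0.09 for TFRC (adjusted p = 1.45e-16) and 0.73 ± 0.18 for SLC11A2 (adjusted p = 0.000532), both higher in passage 4. This comparison called 15.2% of all genes higher and 11.6% lower, and passage stands here for 1 culture of each number. NCOA4 was called higher in reads (0.35 ± 0.12, adjusted p = 0.0162), although its RPKM was lower in passage 4, and FTL (1.09 ± 0.55, adjusted p = 0.136) did not pass, with the opposite sign in RPKM. IREB2 did not pass either (0.19 ± 0.11, adjusted p = 0.199), nor did ACO1 (−0.05 ± 0.09, adjusted p = 0.731).

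The exporter SLC40A1 had too few RF reads to compare. It had 7 and 8 reads with DMSO and 8 and 3 with Silvestrol (passages 3 and 4), and the intervals of counting error included 0 in both. Its mRNA was 2.20 and 1.72 RPKM from 467 and 187 reads, a log2 change on RPM of −0.30 (interval −0.55 to −0.05).

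Of the sensors, IREB2 had higher RF levels in both Silvestrol libraries and ACO1 had slightly lower ones, and neither passed the test. IREB2, the IRP that cells regulate by degradation, had 25.7 (passage 3) and 29.5 RPKM (passage 4) with DMSO against 32.8 and 42.0 with Silvestrol, and the groups did not overlap. Its log2 RF change was 0.56 ± 0.15 (SE, n = 2 per group) with an edgeR adjusted p of 0.0808, and 0.55 ± 0.11 with passage as a block (adjusted p = 4.45e-06), and DESeq2 called it (adjusted p = 0.0469). IREB2 mRNA was higher as well, with 6.48 RPKM in DMSO and 9.23 in Silvestrol. The log2 change of the mRNA on RPM was 0.56 (interval 0.48 to 0.65). At 1 h the RFs were 24.2 RPKM with DMSO and 29.0 with Silvestrol, against 27.8 in untreated cells.

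With DMSO ACO1 had 175 RPKM in passage 3 and 173 in passage 4, and with Silvestrol 154 and 164, again without overlap. These are log2 changes in RPKM of −0.18 and −0.07, where the medians over all genes were −0.17 and −0.15. After scaling between libraries the log2 RF change of ACO1 by edgeR was −0.01 ± 0.11 (adjusted p = 0.980). ACO1 mRNA was 61.1 RPKM with DMSO and 47.4 with Silvestrol, a log2 change on RPM of −0.30 (interval −0.35 to −0.26). FBXL5, the ubiquitin ligase subunit that targets IRPs, had a log2 RF change of 0.16 ± 0.16 (edgeR adjusted p = 0.533). Thus 0 of 3 sensors and, over the members, 0 of 6 genes tested were called in either direction, against the 7.58% and 2.16% of all genes. With passage as a block 3 members were called higher (FTL, TFRC and IREB2) and none lower, where the fit called 25.0% of all genes higher and 28.1% lower.

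Among the 6 members that passed the filter, FTL also had the largest change in TE. TE with Silvestrol was compared with TE in DMSO in passage 3 at 2 h and expressed as a z-score over 10526 genes (mean log2 change −0.31, SD 1.01), with −1.5 and 1.5 as limits. FTL had a z-score of 2.38, rank 76 from the top, and was the only member past a limit. Its TE was 0.0851 in DMSO and 0.362 with Silvestrol. Of all genes 4.36% lay above 1.5 and 6.29% below −1.5. The other members had z-scores of 0.73 (SLC11A2), 0.49 (ACO1), 0.40 (NCOA4), 0.15 (IREB2) and 0.14 (TFRC), all 6 above the median of 0.03. When RFs were taken from passage 4, FTL had a z-score of 3.54. In the edgeR interaction over 6 libraries, where mRNA has 1 library per treatment, the log2 TE change of FTL was 2.83 ± 0.97 with an adjusted p of 0.166, and no gene was called (2571 of 10526 had an unadjusted p under 0.05, and DESeq2 called 941). With passage as a block FTL had 2.55 ± 0.56 (adjusted p = 0.00197) and ACO1 0.48 ± 0.16 (adjusted p = 0.0251), in a fit that called 23.1% of genes higher.

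**Figure D4:**
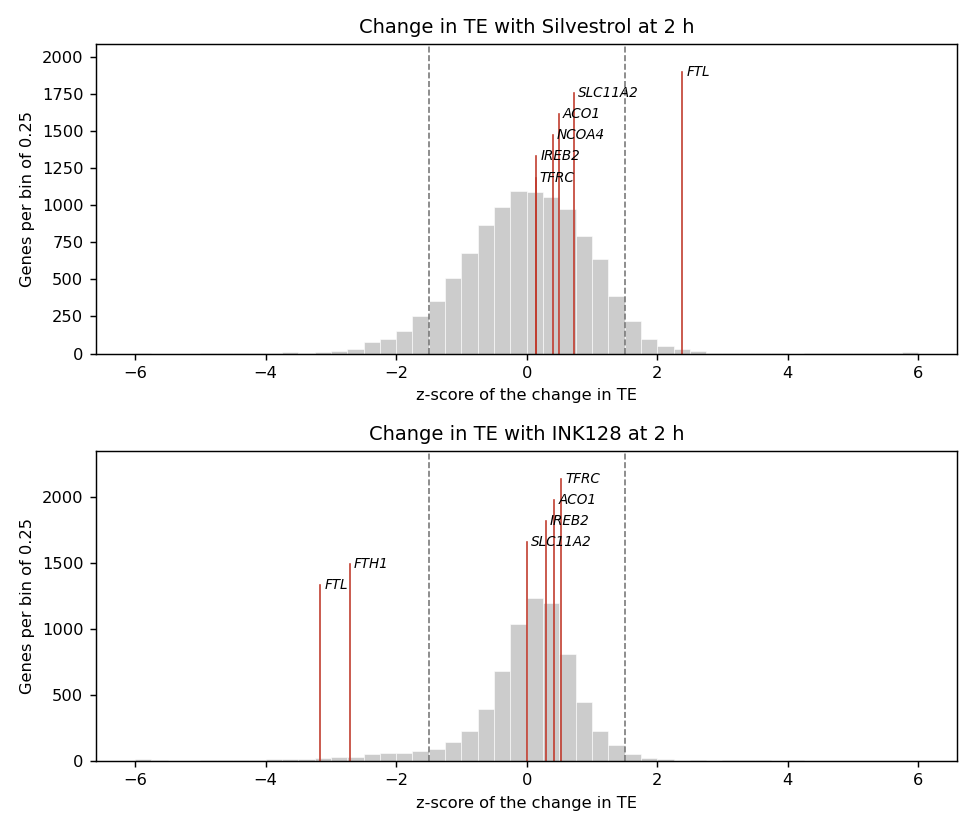
Histograms of the z-score of the change in TE over all genes used, with Silvestrol (10526 genes) above and INK128 (7102 genes) below, with members as red lines and the limits of −1.5 and 1.5 dashed. FTL lies at 2.38 with Silvestrol and at −3.16 with INK128, FTH1 lies at −2.71 with INK128, and the other members lie between 0.01 and 0.73.

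Other mRNAs reported to carry an iron-responsive element included 1 that fell with Silvestrol. CDC42BPA, a kinase of the actin cytoskeleton, had 17.7 and 26.8 RPKM with DMSO against 3.38 and 5.22 with Silvestrol. It fell by 2.28 on the log2 scale (SE 0.28, edgeR adjusted p = 0.0213), with a z-score of −2.65. CDC14A, a phosphatase, had a log2 RF change of −0.70 ± 0.27 (edgeR adjusted p = 0.149) and a z-score of −0.79. With passage as a block CDC14A was called lower (−0.74 ± 0.24, edgeR adjusted p = 0.00623), where 28.1% of all genes were. EPAS1 (HIF2A), the hypoxia factor, had −0.05 ± 0.19 (edgeR adjusted p = 0.878) and a z-score of 0.07. ALAS2, the erythroid enzyme of heme synthesis, had no reads. Of the 4 tested, 1 was called lower and 0 higher, and with the block 2 lower and 1 higher. ALAS2 holds 1 match in its 5′ UTR and CDC14A 1 in its 3′ UTR, and none was found in the transcripts used for CDC42BPA and EPAS1.

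In the wider iron pathway, genes of iron-sulfur cluster assembly showed 3 of 25 called higher and 0 lower in RFs with Silvestrol, with a median log2 change of 0.34 against −0.01 for all genes and a median z-score of 0.74 against 0.03. Of all genes 2.16% were called higher, and with passage as a block 11 of 25 were called higher against 25.0% of all genes, and 1 (CISD2) lower. The 3 called without the block are MMS19, which delivers clusters to nuclear proteins (log2 change 0.80 ± 0.16, edgeR adjusted p = 0.0458), FDX1L, a mitochondrial ferredoxin (0.91 ± 0.19, adjusted p = 0.0472), and HSPA9, a mitochondrial chaperone (0.58 ± 0.11, adjusted p = 0.0430). MMS19 had 68.4 and 57.8 RPKM with DMSO and 104 and 97.4 with Silvestrol, and the log2 change of its mRNA was −0.54 on RPM. By z-score, 3 of the 25 lay above 1.5, as did 4.36% of all genes, and none lay below −1.5. These were MMS19 (1.52), FDXR, the reductase of ferredoxin (1.54), and BOLA3 (1.62), which was named after its value was seen. With the RFs of passage 4 MMS19 had 1.73, FDXR 1.48 and BOLA3 −0.53, the last from 25 and 6 reads (14.1 RPKM with DMSO and 7.27 with Silvestrol). With no minimum RPKM MMS19 (1.37) and FDXR (1.39) were under the limit. Each of the 3 RF calls was lost when either Silvestrol library or DMSO passage 4 was left out, and that of HSPA9 also without DMSO passage 3 and with the counted length taken into account (edgeR adjusted p = 0.144). With edgeR's filterByExpr the adjusted p was 0.0542 for FDX1L and 0.0525 for MMS19.

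Among 19 tested genes of heme synthesis and breakdown, 1 was called lower and 1 higher, and with passage as a block 4 lower and 7 higher. BLVRA, biliverdin reductase, had 131 and 162 RPKM with DMSO and 68.9 and 76.4 with Silvestrol (log2 change −0.88 ± 0.14, edgeR adjusted p = 0.0327). Of 9 genes of uptake and reduction, none was called and STEAP1, a metalloreductase, had a z-score of −1.55 from 74 and 23 RF reads, which was −1.43 with no minimum RPKM and −1.47 with a pseudocount of 0.5. Of 3 genes of export and systemic control, none was called. With the block TFRC and SLC39A14, a metal importer, were called higher in the uptake list (SLC39A14 0.35 ± 0.13, edgeR adjusted p = 0.0189). FLVCR1, a heme exporter in the export list, was called lower (−0.69 ± 0.27, edgeR adjusted p = 0.0249). PCBP1, CISD2, SLC39A14 and FLVCR1 were named with these values known.

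With INK128 both ferritin chains had fewer footprints, while the other members measured were near level. FTL RFs were 363 FPKM with DMSO and 131 with INK128, a ratio of 2.78 between DMSO and INK128, and FTH1 RFs were 173 and 73.4 FPKM, a ratio of 2.36. Their log2 RF changes of −1.47 and −1.24 ranked 63 and 103 from the lowest of 7102 genes, whose median change was 0.01. TFRC had 58.3 and 58.5 FPKM, ACO1 52.9 and 51.5, SLC11A2 8.83 and 9.49, IREB2 5.42 and 5.75, and SLC40A1 0.482 and 0.532. The log2 changes of these 5 lay between −0.04 and 0.14. With 1 library per condition and no read counts, these differences have no test and no interval.

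Total RNA did not set the ferritins apart in the same way. The median log2 change of RNA FPKM with INK128 was −1.17 over these genes, and members are given relative to it. FTH1 RNA was 41.9 and 21.3 FPKM and FTL RNA 116 and 59.0, which is 0.19 above the median change on the log2 scale for both. TFRC was at −0.22 relative to it, ACO1 at −0.21, SLC11A2 at 0.15, IREB2 at −0.01 and SLC40A1 at −0.90. The z-score of the TE change was −3.16 for FTL and −2.71 for FTH1, ranks 94 and 131 from the lowest. It was 0.53 for TFRC, 0.42 for ACO1, 0.29 for IREB2 and 0.01 for SLC11A2. Thus 2 of 6 members lay below −1.5, against 5.58% of all genes, and 0 above 1.5, against 1.75%. Of the genes of the other lists, none lay past either limit.

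**Figure D5:**
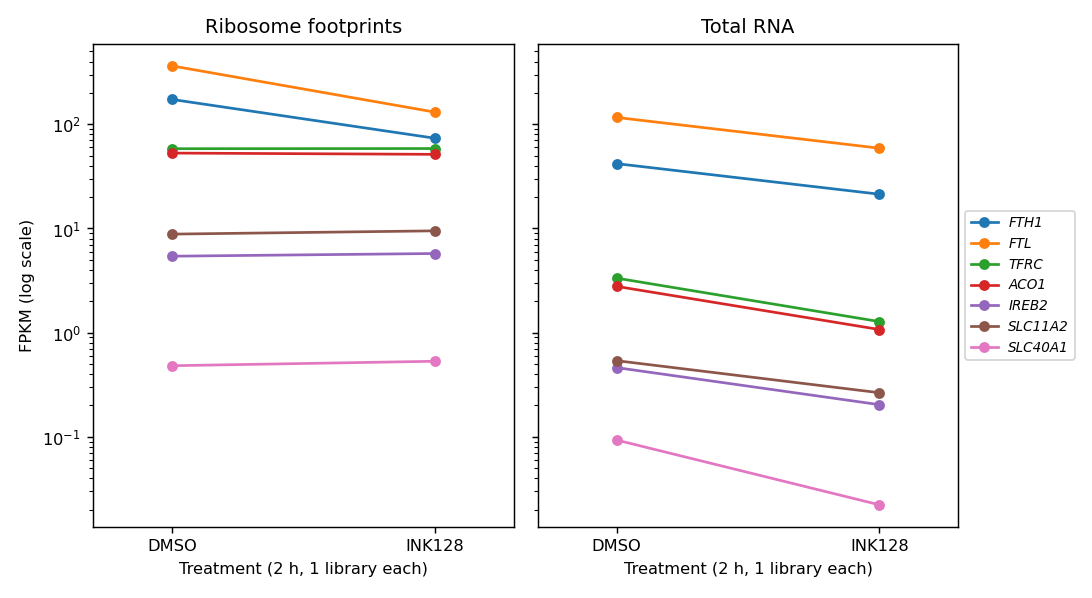
Levels in FPKM (log scale) of 7 members with DMSO and INK128 at 2 h, RFs on the left and total RNA on the right, each point being 1 library. The RF lines of FTL (363 to 131) and FTH1 (173 to 73.4) slope down while the other 5 are level, and the RNA lines of all 7 slope down.

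Across the drugs FTL went in opposite directions, with z-scores of 2.38 and −3.16, from experiments that differ in drug, RNA selection and unit, and the difference was not tested. TFRC, IREB2 and ACO1 lay between 0.14 and 0.53 with both drugs.

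The genes whose RF pattern over the 7 libraries was most like that of TFRC, by root mean square difference of gene-centred log2 RPKM among 6748 genes with at least 50 reads in each library, were IGF2R (0.0421), SGCB (0.0662) and TOR1B (0.0668). For FTL they were NUAK2 (0.452), CEBPD (0.481) and CSRNP1 (0.520), and FTL itself had only 5 to 24 reads per library. For FTH1, at 0 in 4 of the 7, no such genes could be given.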

How the data were processed

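The Silvestrol table held read counts and RPKM values for 9 libraries, and the INK128 table held FPKM values for 4. For the former, the authors aligned reads with Bowtie to hg19 and UCSC KnownGene canonical transcripts with at most 2 mismatches, counted uniquely mapped reads, and deposited these counts with RPKM values from which positions with non-unique reads were excluded. The authors deposited FPKM values for INK128, and the program that made them is not given in the sources used here. The authors' TE and score columns, which hold their comparisons, were not used.

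Repeated lines were dropped (25758 distinct entries of 38897 lines). Genes needed values above 0 in the 4 passage 3 libraries at 2 h, and mean RPKM values no lower than 1 (RF) and 0.3 (mRNA), which left 10526 genes (for INK128 the same limits in FPKM left 7102). The RF test was the quasi-likelihood test of edgeR 4.0.16, run in R 4.3.3 (TMM, glmQLFit, glmQLFTest, 2 libraries against 2) with Benjamini-Hochberg adjustment over all genes tested and a threshold of 0.05, and TE as the interaction of assay and treatment over 6 libraries. DESeq2 1.42.0 was an alternative. In data simulated for these comparisons on 10526 genes, the RF test called 199 of 200 changed genes and 6 others, and the TE test 180 and 9. Those counts apply to that data set only. In the measured libraries the TE test called 0 genes, and how often either test misses a change there was not tested. Replicates 1 and 2 are cultures of passage 3 and passage 4, as the labels state. Deviations from group means correlated between treatments (r = 0.758 over 10526 genes), so passage pairs the samples, and fits with passage as a block are given for members and carriers of the element where they change a call, and as counts for the other lists.

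TE changes from RPKM or FPKM were turned into z-scores without a pseudocount. Comparisons of 1 library with 1 have no test and carry 95% intervals of counting error on RPM (reads scaled to the library total) from the exact binomial, which leave out variation between cultures. Depth ranged from 2652423 to 50315607 counted reads. Transcripts (19683, of which 96.1% were MANE Select) came from GENCODE 44 on GRCh37, and 5′ UTRs were folded with RNAfold 2.7.2.

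The members and the gene lists were chosen with earlier results of these data known. Named genes are the 8 members, all genes of the list of other reported carriers of the element, and, from each further list, up to 4 genes past the RF test or a z-score threshold of 1.5 with either drug, ordered by size of RF change. Some listed genes are not reported here. Alternatives covered normalization, filters, pseudocount, test, pairing, omission of each library and the counted length.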

Additional observations from a re-analysis of the deposited data

Results flagged for a closer look

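FTL RFs moved in opposite directions at 1 h and at 2 h with Silvestrol. At 1 h the log2 change in RF RPKM was −1.29, from 24 and 8 reads, with an interval on RPM from −2.35 to 0.21. At 2 h it was 1.66 in passage 3 and 2.66 in passage 4. The difference between the times was not tested, since 1 h has 1 library per treatment. FDXR, the reductase that supplies electrons to mitochondrial ferredoxin, had a log2 change in RF RPKM of −0.0178 at 1 h and was higher in RPKM in both passages at 2 h. The direction at 1 h depended on the unit, since in RPM FDXR had 27.2 with DMSO and 29.3 with Silvestrol, so no difference between the times is shown.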

How the results depend on the processing

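The direction of the FTL change held under each alternative run for RFs and TE at 2 h. Without 1 library its RF change ranged from 1.45 to 3.09 and its TE change from 2.01 to 3.60, the lower RF value without passage 4 of Silvestrol, and its z-score from 2.07 (RPM values) to 3.54. Under every choice 0 members were called in RFs except with the passage as a replicate block (3, with or without the counted length, the latter pairing added after seeing the data) and with DESeq2 (1, IREB2; FTL had no adjusted p). Over all genes RF calls numbered 1025, 1629 with DESeq2, 5593 with the block, 5479 with block and counted length, and 0 to 1068 without 1 library, 0 without either Silvestrol library. TE calls numbered 0, 941 with DESeq2, 4835 with the block (2 members) and 0 to 900 without 1 library. Small changes near 0 reversed. For ACO1 the RF change was 0.0330 with DESeq2, 0.0329 with its size factors, 0.00109 with filterByExpr, 0.0163 with the counted length (0.0153 with the block too) and −0.0481 to 0.0391 without 1 library. NCOA4 had −0.0406 with the counted length, −0.0425 with the block too, and −0.0350 to 0.397 without 1 library. Without 1 library the RF change ranged from −0.17 to 0.79 for TFRC, −0.23 to 0.67 for SLC11A2, −1.31 to 0.0908 for STEAP1 and −0.20 to 0.12 for EPAS1, and the TE change from −0.39 to 0.49 for TFRC and −0.11 to 0.22 for EPAS1. With total counts, which moved the median TE change to −0.25, TFRC had −0.23, IREB2 −0.0744 and EPAS1 −0.18. SLC40A1 joined FTL past the z limit with no minimum RPKM (2 members). With INK128, 520 genes were past the limits, 1224 with no minimum FPKM, 1357 with median and MAD, and 56 of 906 with a minimum of 5, where FTL (−1.14) and FTH1 (−0.90) no longer passed (0 members). The causes were not tested. Few reads limit FTL, FTH1 and SLC40A1 most.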
